A study of Mus musculus with 6 samples.

Results

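The genes described here are 10 members of the Notch pathway: the receptors Notch1, Notch2, Notch3 and Notch4, the ligands Jag1, Jag2 and Dll1, and the transcriptional targets Hes1, Hey1 and Nrarp. Their probes were found by the RefSeq accession printed for each probe on the array. All 10 genes had a probe, 12 probes in all, of 27235 probes for 20660 genes that could be matched to RefSeq. The samples were female C57Bl6J mammary cells that were not cultured before RNA extraction. The fetal population was sorted at embryonic day 18.5 (E18.5) as CD31-, CD45-, Ter119-, EpCAM++ and CD49f+ cells. The adult basal population came from mice of 8 to 12 wk and was sorted as CD31-, CD45-, Ter119-, BP-1-, EpCAM+ and CD49f+ cells. Each had 3 biological replicates, with 1 Agilent one-colour array for each, and how many mice went into a replicate is not given in the sources used here. The sort gates are not the same for both ages, and the study's methods give an overnight digestion for adult glands and a shorter one for fetal glands, so age, gate and digestion cannot be told apart. The methods and the labels name different versions of the labelling kit. Each array held 59305 spots other than controls, none saturated, and 76.4% to 83.3% of probes were well above background. Slide 1 carried fetal replicate 1 with adult basal replicates 1 and 3, and slide 2 carried fetal replicates 2 and 3 with adult basal replicate 2. The question was which members differed between the fetal and the adult basal cells.

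Notch receptors are membrane proteins that are cut when a ligand of the Delta-like or Jagged family on a neighbouring cell pulls on them. The freed intracellular domain enters the nucleus, binds the DNA-binding protein RBPJ with a Mastermind co-activator, and turns on genes such as those of the Hes and Hey repressors. In the mammary gland the pathway is known for favouring the luminal over the basal fate, and basal cells are known as a source of ligand.

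The promoters of 4 member genes, 2 receptors, a target and a ligand, are shown as examples and were chosen after the values of their transcripts were seen. Each line gives the 120 bases before the annotated start of transcription on the gene's own strand, from RefSeq on GRCm38.p6, with every CG dinucleotide in capitals. The stretches lie at chr2:26503823-26503942 (minus strand, Notch1), chr17:32166891-32167010 (minus strand, Notch3), chr2:25180638-25180757 (plus strand, Nrarp) and chr2:137116521-137116640 (minus strand, Jag1).
Notch1: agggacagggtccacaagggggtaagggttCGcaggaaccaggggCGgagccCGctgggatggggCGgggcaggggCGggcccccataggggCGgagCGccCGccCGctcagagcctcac
Notch3: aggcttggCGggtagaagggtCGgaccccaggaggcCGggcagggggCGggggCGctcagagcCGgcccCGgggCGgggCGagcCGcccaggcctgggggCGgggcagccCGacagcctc
Nrarp: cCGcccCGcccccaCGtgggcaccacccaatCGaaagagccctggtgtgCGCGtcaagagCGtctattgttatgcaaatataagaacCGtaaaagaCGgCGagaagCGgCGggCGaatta
Jag1: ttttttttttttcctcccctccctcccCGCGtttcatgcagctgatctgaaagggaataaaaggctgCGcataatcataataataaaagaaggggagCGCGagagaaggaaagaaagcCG
They hold 9, 12, 13 and 6 CG dinucleotides, in the order Notch1, Notch3, Nrarp and Jag1. RefSeq windows of 250 bases before to 50 after the start were matched for 8 member genes, 9 windows in all, but not for Hes1 and Hey1. The median number of CG dinucleotides was 23 in these windows and 7 over all 32851 windows, and the median GC content was 62.67% against 52.67%. The RBPJ core motif GTGGGAA, searched on both strands, lay in 0 of the 9 windows and in 6.38% of all windows. Its shorter form TGGGAA, which every longer match also holds, lay in 0 of the 9 windows and in 25.6% of all windows. A window without these letters says nothing about binding elsewhere in the gene.

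Fetal cells had higher signal for the receptors Notch1 and Notch3 and for the target Hes1, and adult basal cells for the ligand Jag2. These 4 genes reached a 2-fold difference at a p of at most 0.05 after Holm adjustment, in limma's fit of all probes. Over all 15725 genes tested by their brightest probe, 11.2% passed that rule, 6.02% with higher fetal signal and 5.2% with higher adult basal signal. With Benjamini-Hochberg adjustment and the same 2-fold limit 7 members passed, the others being Hey1 and Nrarp (higher in fetal cells) and Jag1 (higher in adult basal cells), where 29.7% of all genes passed. All 12 member probes passed the filter on low signal, 10 of them in both populations, but that of Nrarp and the second probe of Notch1 only through their fetal signal, so a difference was bound to be found there and supports nothing by itself. For 8 of the 10 members every array of 1 population lay above every array of the other, which held for 68.4% of all genes. The median absolute log2 difference was 1.85 over the members and 0.53 over all genes. The members include Nrarp and were chosen with earlier results of these data known, so this contrast is only a description. As these are RNA levels of whole sorted populations, fewer cells that make a transcript and less of it in each cell cannot be told apart. With only 3 replicates a side, the smallest p that exact permutation of 1 probe could reach is 0.10, so no probe could pass the limits by permutation. The limits were passed in limma's test, which shares variance across probes, and how far they depend on that sharing was not tested.

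**Figure D1:**
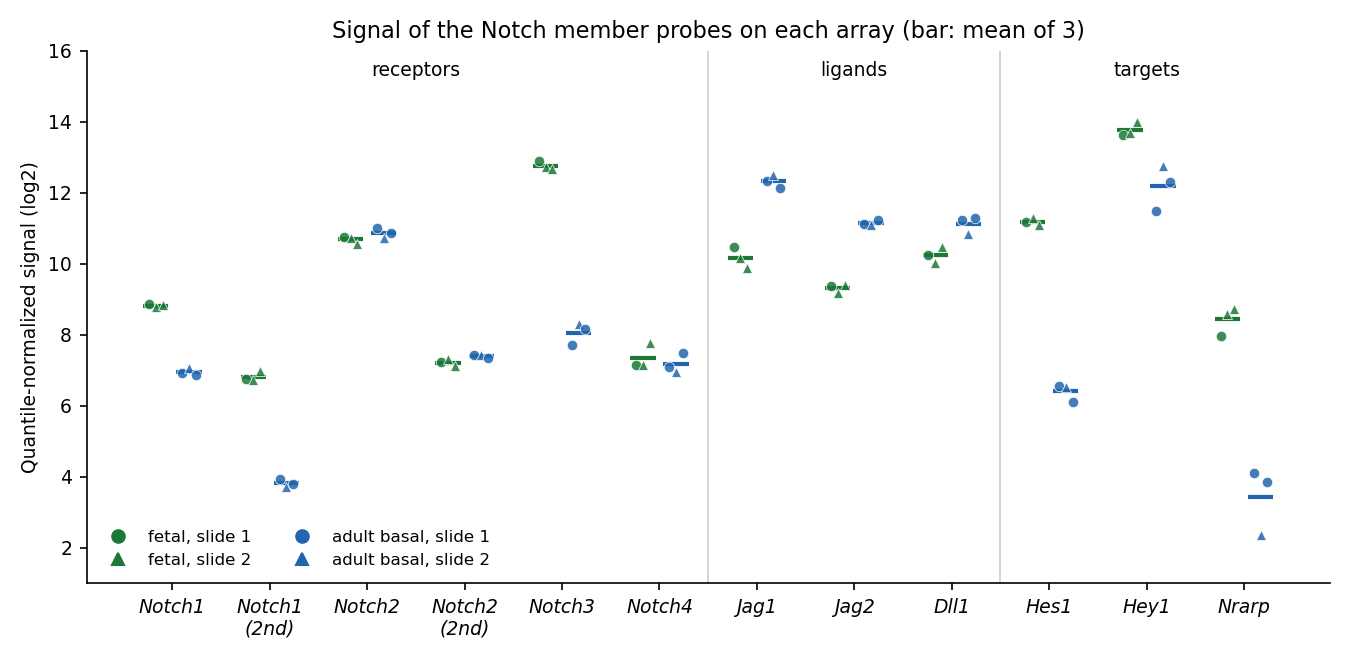
Quantile-normalized log2 signal of each of the 12 member probes on each array, fetal in green and adult basal in blue, with circles for slide 1, triangles for slide 2 and a bar at the mean of 3 arrays. Notch3 and Hes1 lie more than 4 log2 units higher on every fetal array than on any adult basal array, whereas the arrays of the groups overlap for Notch4 and for the main probe of Notch2, and levels of different probes should not be compared.

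The receptors split into a pair with higher fetal signal and a pair whose differences did not pass the test. Notch3, the receptor known from mural cells of vessels and from luminal progenitors of the mammary gland, had log2 signals of 12.88, 12.74 and 12.66 in fetal cells and 7.70, 8.31 and 8.15 in adult basal cells. The lowest fetal array was 4.35 above the highest adult basal array on the log2 scale. The means were 12.76 ± 0.11 (SD, n = 3) and 8.06 ± 0.32 (SD, n = 3), a difference of 26.1-fold (log2 4.70, standard error 0.17, Holm-adjusted p = 2.9e-04). It was 4.95 on slide 1 and 4.39 on slide 2, and the call held under all 18 alternative settings.

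Notch1, the receptor best known from T cell development and epithelial fate decisions, gave log2 signals of 8.85, 8.78 and 8.83 in fetal cells and 6.92, 7.05 and 6.88 in adult basal cells by its brighter probe, A_55_P2171897. Replicates of a population stayed within 0.2 of each other on the log2 scale, and the populations were well apart. The means were 8.82 ± 0.04 (SD, n = 3) and 6.95 ± 0.09 (SD, n = 3), a difference of 3.66-fold (log2 1.87, standard error 0.10, Holm-adjusted p = 0.0039). The second probe, A_55_P2047168, had log2 signals of 6.74, 6.71 and 6.99 in fetal and 3.93, 3.72 and 3.79 in adult basal cells. Its log2 difference was 3.00 (standard error 0.12), but only 1 of 3 adult basal arrays was well above background there, and the probe was tested only through its fetal signal, so it is given as a description. The size therefore rests on the treatment of dim signal, as normexp correction gave log2 differences of 1.5 for the brighter probe and 1.13 for the second. The call of the brighter probe was lost when any 1 fetal array was left out (Holm-adjusted p = 0.076 to 0.092), with log2 differences of 1.86 to 1.89.

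Notch2, which acts beside Notch1 in many epithelia, had log2 signals of 10.77, 10.73 and 10.56 in fetal cells and 11.02, 10.74 and 10.87 in adult basal cells by its brighter probe. The arrays of the groups overlapped. The log2 difference was -0.19 (95% interval -0.47 to 0.09, Holm-adjusted p = 1), and the second probe also gave -0.19 (95% interval -0.43 to 0.05). A 2-fold difference in either direction lies outside both intervals. Notch4, the receptor known from endothelium, had log2 signals of 7.16, 7.14 and 7.76 in fetal cells and 7.08, 6.94 and 7.48 in adult basal cells. The third replicate was the highest of its group in each population. The log2 difference was 0.18 (95% interval -0.32 to 0.69, Holm-adjusted p = 1), and it was -0.12 on slide 1 and 0.51 on slide 2.

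The ligands lay in the opposite direction to Notch1, Notch3 and Hes1, but only Jag2 passed both limits. Every adult basal array lay above every fetal array for all 3 ligands, where 68.4% of all genes had no overlap in either direction. Jag2, a Jagged ligand needed for limb and craniofacial development, had log2 signals of 9.36, 9.18 and 9.40 in fetal cells and 11.12, 11.09 and 11.22 in adult basal cells. The spread within a population was small beside the gap of 1.69 between the closest fetal and adult basal arrays. The means were 9.31 ± 0.12 (SD, n = 3) and 11.14 ± 0.07 (SD, n = 3), so that adult basal cells were 3.55-fold higher (log2 difference -1.83, standard error 0.11, Holm-adjusted p = 0.0080). The log2 difference was -1.81 on slide 1 and -1.80 on slide 2. The Holm call was lost under 8 of 18 alternatives, for example with slide as a block (adjusted p = 0.055) or when any array other than adult basal replicate 2 was dropped (adjusted p = 0.080 to 0.14), while the log2 difference stayed between -1.89 and -1.75 under all 18.

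Jag1, the Jagged ligand mutated in Alagille syndrome, had log2 signals of 10.46, 10.17 and 9.89 in fetal cells and 12.33, 12.50 and 12.14 in adult basal cells. The fetal replicates spread more than those of Jag2. The means were 10.17 ± 0.28 (SD, n = 3) and 12.32 ± 0.18 (SD, n = 3), with 4.42-fold more signal in adult basal cells. The log2 difference of -2.15 (standard error 0.17) was larger in size than that of Jag2 but missed the Holm limit (adjusted p = 0.066) and passed that of Benjamini-Hochberg (adjusted p = 3.1e-05). It was -1.77 on slide 1 and -2.46 on slide 2, and 5 of 18 alternatives called it. They were normalization to the 75th percentile, normexp correction, a variance trend with robust estimation, an offset of 16 before log2 and Benjamini-Hochberg adjustment.

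Dll1, a Delta-like ligand known from somite formation and from mammary basal stem cells, was spotted 10 times on each array and its spots were averaged. Its log2 signals were 10.24, 10.01 and 10.46 in fetal cells and 11.24, 10.83 and 11.29 in adult basal cells. The closest fetal and adult basal arrays were 0.37 apart. The log2 difference was -0.89 (95% interval -1.29 to -0.48), below the 2-fold limit, with a Holm-adjusted p of 1 and a Benjamini-Hochberg adjusted p of 0.0029.

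**Figure D2:**
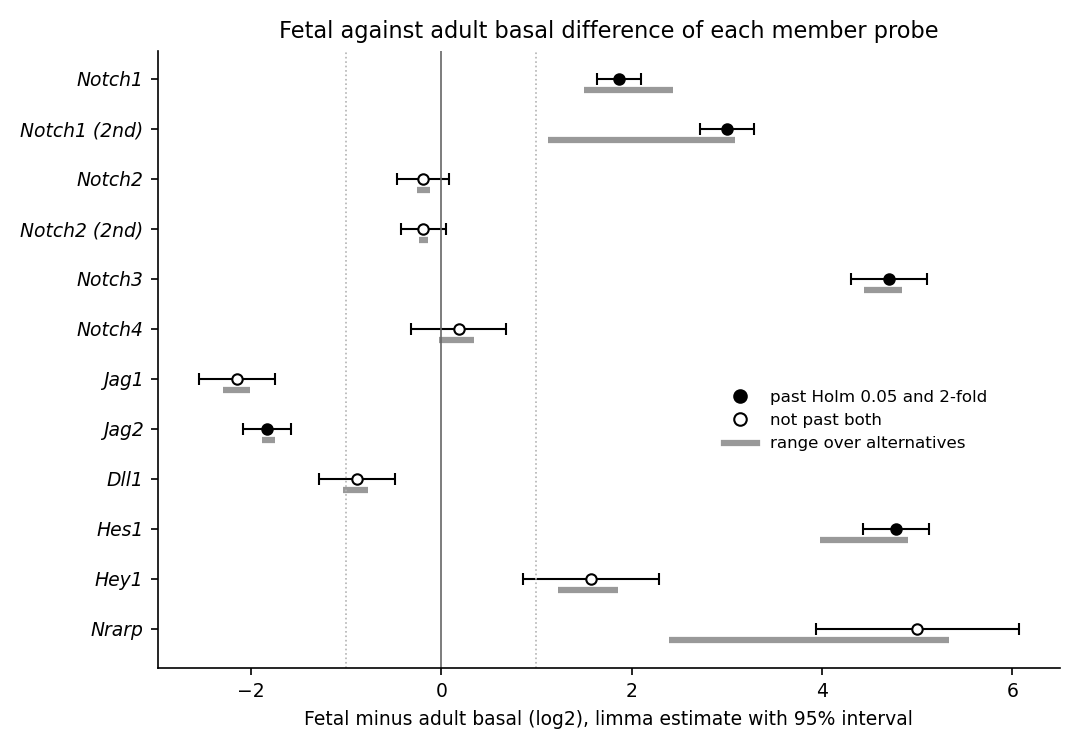
Log2 difference of fetal minus adult basal cells for each member probe from limma, with its 95% interval, filled where it passed a Holm-adjusted p of 0.05 and 2-fold (dotted lines). Grey bars give the range over the alternative settings, which for Nrarp runs from 2.39 to 5.34 and for Jag2 only from -1.89 to -1.75.

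The targets all had higher signal on every fetal array than on any adult basal array, where 68.4% of all genes had no overlap in either direction. Among them Nrarp was tested only through its fetal signal, and only Hes1 passed both limits. Hes1, a basic helix-loop-helix repressor that is a direct target of Notch in many tissues, had log2 signals of 11.18, 11.28 and 11.08 in fetal cells and 6.57, 6.52 and 6.11 in adult basal cells. The lowest fetal array was 4.51 above the highest adult basal array on the log2 scale. The means were 11.18 ± 0.10 (SD, n = 3) and 6.40 ± 0.25 (SD, n = 3), a difference of 27.4-fold (log2 4.78, standard error 0.15, Holm-adjusted p = 9.0e-05). All 6 arrays were well above background. The log2 difference was 4.84 on slide 1, 4.66 on slide 2 and 3.98 after normexp correction, and the call held under all 18 alternatives.

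Nrarp, an ankyrin repeat protein that is induced by Notch and dampens it by destabilizing the intracellular domain, had log2 signals of 7.97, 8.59 and 8.74 in fetal cells and 4.10, 2.35 and 3.85 in adult basal cells. Adult basal replicate 2 was far below the others, and only 1 of 3 adult basal arrays was well above background. The means were 8.43 ± 0.41 (SD, n = 3) and 3.43 ± 0.95 (SD, n = 3). The adult basal mean lay under the low-signal limit of 5.95, so the probe entered the test only through its fetal signal. The log2 difference of 5.0 (standard error 0.45) did not pass the Holm limit (adjusted p = 0.16, and 1 without the low-signal filter). Its size rests on signal near the background, as it was 2.39 after normexp correction and 4.46 without adult basal replicate 2, both of which passed the Holm limit (adjusted p = 0.019 and 0.0088). It was 4.0 on slide 1 and 6.32 on slide 2.

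Hey1, a repressor related to the Hes proteins, had log2 signals of 13.62, 13.68 and 13.98 in fetal cells and 11.48, 12.76 and 12.31 in adult basal cells. Adult basal replicate 1 was the lowest, and the closest fetal and adult basal arrays were 0.85 apart. The means were 13.76 ± 0.20 (SD, n = 3) and 12.19 ± 0.65 (SD, n = 3). The log2 difference of 1.57 (standard error 0.31) had a Holm-adjusted p of 1 and a Benjamini-Hochberg adjusted p of 0.0030. It was 1.72 on slide 1 and 1.07 on slide 2, and 1.22 without adult basal replicate 1.

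**Figure D3:**
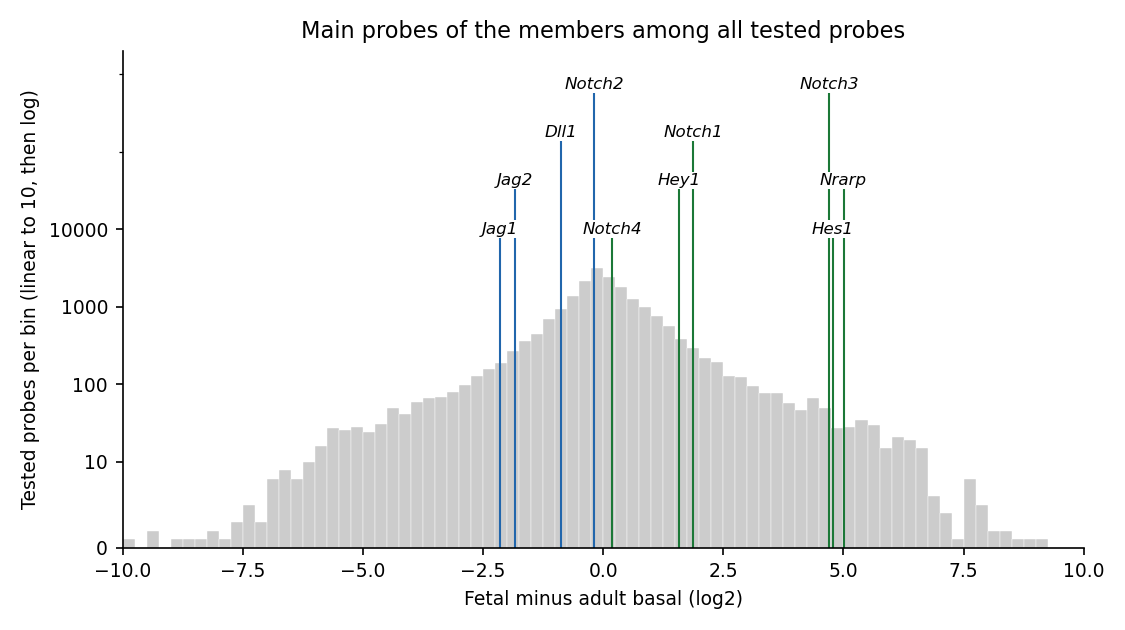
Number of the 20448 tested probes in bins of log2 difference, fetal minus adult basal, on an axis that is linear up to 10 and logarithmic above. The lines mark the main probes of the members, whose height carries no value, and Notch3 and Hes1 lie far into the right tail while Notch2 and Notch4 lie near 0. The line of Nrarp rests on adult basal signal near the background and would lie at 2.39 after normexp correction.

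Among all 20448 probes tested, 98.0% had a smaller absolute log2 difference than Notch3 and 98.1% a smaller one than Hes1. No such rank is given for Nrarp, whose adult basal signal was well above background on only 1 of 3 arrays. The corresponding shares were 86.5% for Notch1, 89.1% for Jag1 and 86.1% for Jag2. Notch2 and Notch4 had larger absolute differences than only 21.5% and 20.9% of the probes.

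The other genes of the pathway were taken from lists of ligand-like proteins, glycosyltransferases, ubiquitin ligases, proteases, nuclear proteins, inhibitors and further Hes and Hey genes. Of 61 genes, 58 had a matched probe and 53 were tested. Fetal signal was higher for 3 (Dlk1, Dtx4 and Hdac1), adult basal signal was higher for 2 (Rbpj and Numbl), and 48 did not pass, where 11.2% of all genes passed the same rule. The median absolute log2 difference of these 53 genes was 0.48, against 0.53 over all genes. With Benjamini-Hochberg adjustment 3 genes were higher in fetal and 5 in adult basal cells, where 29.7% of all genes passed in either direction. The further 3 were Mib2 (log2 difference -1.22) and Neurl2 (-1.43), ubiquitin ligases that act on ligands or are related to such ligases, and Dtx3l (-1.85) of the Deltex family, named here after their values were seen.

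Dlk1, an imprinted Delta-like protein that lacks the domain by which canonical ligands bind the receptors, had log2 signals of 14.89, 15.05 and 15.02 in fetal cells and 10.45, 11.17 and 9.93 in adult basal cells. No array of the groups came near the other, with a log2 difference of 4.47 (95% interval 3.80 to 5.14, Holm-adjusted p = 0.015). Its second probe gave 4.71 (Holm-adjusted p = 0.014). In the same list, Dll3 was at a log2 difference of 0.01 and Dll4, the endothelial ligand, at -0.14.

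Rbpj, which encodes the DNA-binding protein through which all 4 receptors act, had log2 signals of 11.08, 11.10 and 10.98 in fetal cells and 12.95, 13.19 and 12.90 in adult basal cells. It was thus higher in adult basal cells, opposite to Notch1, Notch3 and Hes1, by 3.90-fold (log2 difference -1.96, 95% interval -2.23 to -1.69, Holm-adjusted p = 0.0085). Its second probe gave -1.55 (Holm-adjusted p = 0.089). Hdac1, a histone deacetylase found in co-repressor complexes, had log2 signals of 14.92, 15.02 and 15.01 in fetal cells and 13.23, 12.84 and 12.88 in adult basal cells, a log2 difference of 2.01 (Holm-adjusted p = 0.017). Its other 2 probes gave 1.95 (Holm-adjusted p = 0.070) and 1.69 (Holm-adjusted p = 0.11). The remaining 14 genes of the nuclear list, with the Mastermind genes Maml1, Maml2 and Maml3 at log2 differences of -0.53, -0.17 and 0.05, did not pass.

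Among proteins that act on receptor turnover, Dtx4, a Deltex ubiquitin ligase, had log2 signals of 10.96, 11.10 and 11.10 in fetal cells and 7.90, 8.00 and 8.00 in adult basal cells. The replicates were very close, and the log2 difference was 3.08 (95% interval 2.85 to 3.32, Holm-adjusted p = 1.3e-04). Numbl, a relative of the Notch inhibitor Numb, had log2 signals of 10.08, 10.02 and 10.13 in fetal cells and 11.94, 12.23 and 12.28 in adult basal cells, with higher adult basal signal by a log2 difference of -2.07 (95% interval -2.36 to -1.79, Holm-adjusted p = 0.0082). Numb itself was at -0.06. The call of Dtx4 held under all 18 alternatives, whereas those of Dlk1, Rbpj, Hdac1 and Numbl were lost under 6 to 8 of them, including the omission of any 1 fetal array (Holm-adjusted p = 0.11 to 0.28).

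No gene passed the Holm rule in the lists of glycosyltransferases (0 of 5), ligand ubiquitin ligases (0 of 5), proteases (0 of 8) and other Hes and Hey genes (0 of 5), lists too short to be set against the 11.2% of all genes. The brightest tested gene of each is given as an example. The log2 difference was 0.57 for Rfng, a fringe glycosyltransferase that modifies the receptors, -0.83 for Neurl1b, a ligase of the ligands, 0.05 for Psenen, a subunit of gamma-secretase, and -0.12 for Hes7, a gene of the segmentation clock. With Benjamini-Hochberg adjustment and 2-fold, 2 ligand ubiquitin ligases passed and 0 genes of the other lists. At an unadjusted p under 0.05 in limma's test and with no limit of size, these lists held 4, 3, 5 and 1 genes in the same order, against 10038 of all 15725.

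**Figure D4:**
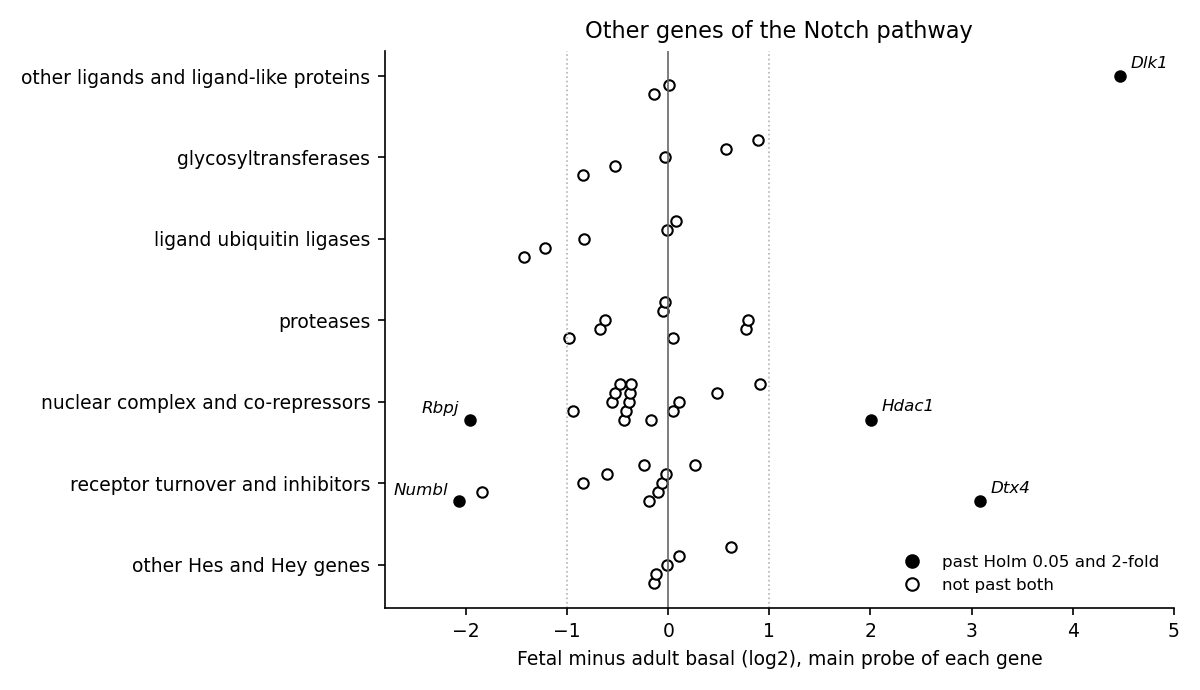
Log2 difference of fetal minus adult basal cells for the main probe of each of the 53 other pathway genes tested, by list, filled where it passed a Holm-adjusted p of 0.05 and 2-fold (dotted lines). Most genes lie within 1 log2 unit of 0, and the 5 that passed are named.

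Markers of the sorted and of other cell types were measured on the same arrays. Of 10 basal markers, 8 were higher in adult basal cells, where 5.2% of all genes were. Myh11 among them was tested only through its adult basal signal. For the basal list the log2 of the summed signal was 16.5, 16.4 and 16.2 in fetal and 20.2, 20.2 and 20.2 in adult basal cells. The brightest was Acta2, smooth muscle actin of myoepithelial cells (log2 difference -4.07, Holm-adjusted p = 4.9e-04), and Krt5 was at -3.90 (Holm-adjusted p = 0.0039). Krt14 did not pass (-1.20), with a log2 signal of 13.39 on adult basal replicate 2 against 15.25 and 15.46 on the other adult basal arrays. The brighter Trp63 probe was at -0.08 and another at -3.06 (Holm-adjusted p = 1.9e-04). Of 12 luminal markers tested, 5 were higher in fetal cells, where 6.02% of all genes were, with Elf5, a regulator of luminal progenitors and alveolar cells, at a log2 difference of 7.55 (Holm-adjusted p = 7.5e-06), tested only through its fetal signal. The others, named after their values were seen, were Aldh1a3 (7.11), Foxa1 (6.46), Kit (4.0) and Pgr (2.13). No luminal marker passed the Holm rule with higher adult basal signal, but with Benjamini-Hochberg adjustment, by which 29.7% of all genes passed in either direction, 2 did, Krt19 (-1.22, adjusted p = 4.1e-04) and Krt7 (-1.29, adjusted p = 0.0025), also named after their values were seen. Further probes that passed were those of Prlr (1.85, Holm-adjusted p = 0.026, with the brighter probe at -0.35) and, by Benjamini-Hochberg adjustment alone, Pgr (1.67) and Esr1 (-3.58), the last with only 1 of 3 fetal arrays well above background. These probes of Pgr and Esr1 passed the low-signal filter through 1 population only. The keratins Krt8 (0.44) and Krt18 (0.58), the brightest, passed neither rule. The log2 of the summed signal of the 13 luminal markers was 17.7, 17.7 and 17.3 in fetal and 17.0, 16.9 and 16.9 in adult basal cells. The basal markers that passed were all higher in adult basal cells, whereas the luminal list held genes in both directions, and the part of either list in the member differences was not tested.

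For endothelium, which expresses Notch4 and Dll4, 0 of 8 tested markers passed in limma's test (4 with Benjamini-Hochberg adjustment, each higher in adult basal cells, and 5 at an unadjusted p under 0.05 with no limit of size). Over all genes 11.2% passed the Holm rule and 29.7% passed with Benjamini-Hochberg adjustment, and 10038 of 15725 had such an unadjusted p. Of the 4, Cdh5 and Emcn were tested only through their adult basal signal, so their direction was fixed by the filter. The other gene with an unadjusted p under 0.05 was Egfl7, which went the other way. It was higher in fetal cells at a log2 difference of 0.99, under the 2-fold limit, and was named after its values were seen. The log2 of the summed endothelial signal was 13.8, 13.7 and 13.9 in fetal and 13.8, 13.9 and 13.7 in adult basal cells. The brightest was Kdr (-0.04), with log2 means of 13.45 in fetal and 13.49 in adult basal cells, so the sum is mostly this probe. A dimmer Kdr probe had log2 means of 6.20 in fetal and 6.87 in adult basal cells and was at -0.66. Similar sums therefore do not show similar signal of the other markers. Pecam1, the sorted-out CD31, was at -0.14 and Cdh5 at -2.70 (Holm-adjusted p = 1), and no array was well above background for Erg. For mural cells, which express Notch3, 1 of 5 markers passed (3 with Benjamini-Hochberg adjustment), where 11.2% and 29.7% of all genes did in either direction. The list is too short to be set against those shares. The marker that passed the Holm rule was Pdgfrb, lower in fetal cells by a log2 difference of -4.34 (Holm-adjusted p = 5.6e-04). Rgs5 was at -2.22 (Holm-adjusted p = 0.14). Both were tested only through their adult basal signal, as their fetal means lay under the low-signal limit. No array was well above background for Kcnj8. Cspg4 was at -0.07 and Abcc9 at -0.33, both named after their values were seen. The log2 of the summed mural signal was 11.1, 11.1 and 11.1 in fetal and 12.9, 12.8 and 12.5 in adult basal cells. Ndufa4l2 was the brightest in it.

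Fibroblast markers had 1 of 8 higher in adult basal cells, Dcn (log2 difference -3.78), against 5.2% of all genes. With Benjamini-Hochberg adjustment 3 were higher there, Lum (-1.05) and Thy1 (-1.62) among them, and 7 had an unadjusted p under 0.05, against 29.7% and 10038 of 15725 of all genes in either direction. The list is too short to be set against those shares. These genes were named after their values were seen. The list had summed log2 signals of 14.0, 13.9 and 14.0 in fetal and 15.0, 15.6 and 15.3 in adult basal cells. Their brightest was Fn1 (log2 difference -0.94), and Col1a1 was at -0.01. Leukocyte markers had 0 of 8 passing in limma's test (1 with Benjamini-Hochberg adjustment, Lyz2 at -1.76, and 2 at an unadjusted p under 0.05), with summed log2 signals of 15.1, 14.8 and 14.7 in fetal and 14.6, 15.1 and 14.8 in adult basal cells. Their brightest was Itgam (0.24), and Ptprc, which encodes CD45, was at -0.31. Dimmer probes of Itgam were at 0.15 and -0.15. Csf1r, named after its values were seen, was at -0.06 by its brightest probe and at -0.25 and -0.66 by dimmer ones. The sum rests mostly on the brightest probes of Itgam and Csf1r, so similar sums do not show similar signal of every marker. A second probe of Adgre1 was at least 10.4-fold higher in adult basal cells (Holm-adjusted p = 1, Benjamini-Hochberg adjusted p = 0.0017). It was not above background in any fetal sample, and the brighter Adgre1 probe was at -0.42. Both Lyz2 and this Adgre1 probe were tested only through their adult basal signal, and were named after their values were seen. Erythroid markers had 0 of 2 passing in limma's test (0 with Benjamini-Hochberg adjustment and 0 at an unadjusted p under 0.05), with summed log2 signals of 10.55, 11.08 and 10.87 in fetal and 10.35, 11.03 and 10.32 in adult basal cells and Slc4a1 the brightest (0.14). Over all genes 11.2% passed the Holm rule and 29.7% passed with Benjamini-Hochberg adjustment. In limma's test 10038 of 15725 had an unadjusted p under 0.05. The leukocyte and erythroid lists are too short to be set against those shares, so 0 passing does not show an absence of difference. The part of any of these other cell types, from endothelium to erythroid cells, in the member differences was not tested.

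**Figure D5:**
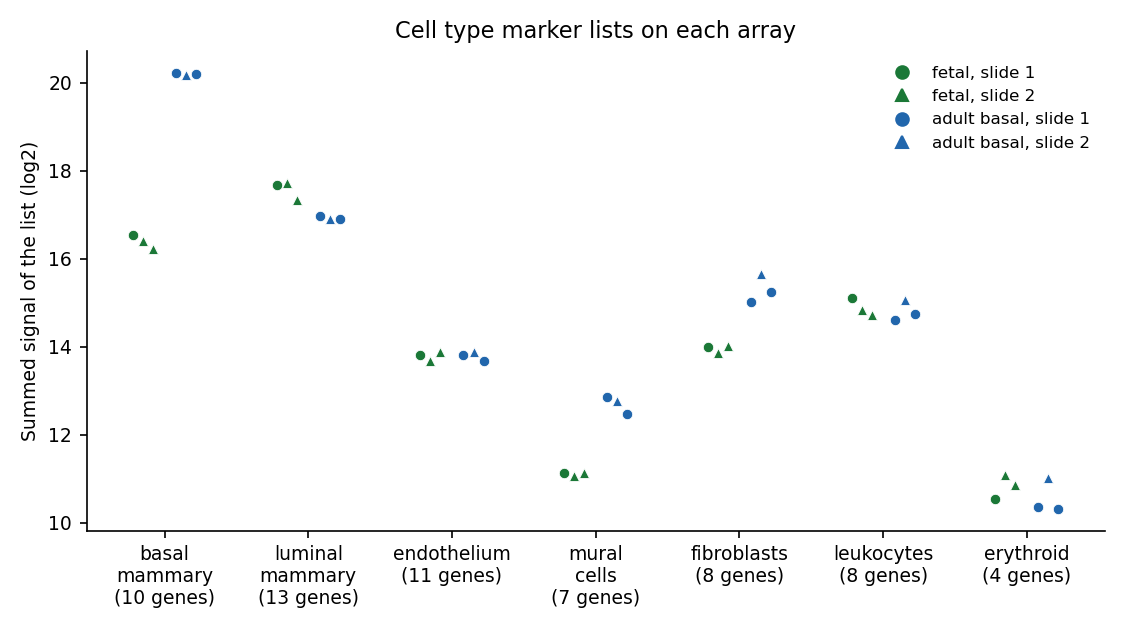
Log2 of the summed linear signal of each cell type marker list on each array, fetal in green and adult basal in blue, with circles for slide 1 and triangles for slide 2. The basal list is near 16 in fetal and 20 in adult basal cells, whereas the endothelial and leukocyte lists overlap between the groups. A sum rests mostly on the brightest probes of its list, so overlap does not show equal signal of every marker. Levels of different lists should not be compared.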

How the data were processed

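The authors scanned 6 one-colour Agilent SurePrint G3 Mouse GE arrays, and the labels name Feature Extraction 11.0.1.1, which subtracted background within each array. The deposited processed signal is a linear spot intensity. The authors also deposited log2 values that they quantile normalized in GeneSpring, used here as an alternative. The column medians were all 7.11. For correlation, the mean of each tested probe over the 6 arrays was first subtracted, in the deposited and in the quantile-normalized scanner values. These are therefore correlations of deviations and not of whole signal profiles. Each column correlated at 0.9999 with the scanner values of its own array. By these deviations adult basal replicate 2 stood apart. Its best correlation with any other array was 0.785, against 0.884 to 0.937 for the other columns. It also had the most outlier spots (326).

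After control and outlier spots (104 to 326 an array) had been dropped, log2 values were averaged over the spots of each probe, followed by quantile normalization. Accessions of 27235 of 55681 probes (48.9%) matched 1 gene in a RefSeq table of GRCm38.p6, whose coordinates serve here only for the promoter windows and not to place probes, since the array design names another build. Probes under a log2 signal of 5.95, the midpoint between the lowest and the middle k-means cluster (k = 3, 100 starts, seed 1), in both populations were removed. The study's methods also use k-means for this, but here 1 limit was shared by both populations and set on the matched probes alone. The remaining 20448 were fitted with limma 3.58.1 (lmFit, eBayes) in R 4.3.3, with Holm adjustment over all of them, and called at an adjusted p of at most 0.05 and at least 2-fold. A gene was represented by its brightest probe over the 6 arrays. A set of 18 alternatives was run; normexp (offset 50) used the median spot intensity. Simulated arrays were used to test the fit. Plots were drawn with matplotlib 3.10.9 in Python 3.11.15.

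The members, the gene lists and the tests were chosen with earlier results of these data known. Named are all members with every probe that matched by accession, so a probe of a member without such a match would be missed. Also named are other pathway genes that were called or, in lists with none, the brightest tested gene. For each marker list the brightest gene, defining markers and those at background are named. A few further genes are named for comparison within a list (Dll3, Dll4, Maml1 to Maml3 and Numb), after their values were seen. Precision is limited by having 3 arrays for each population.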

Additional observations from a re-analysis of the deposited data

How the results depend on the processing

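Among the members and the 5 called pathway genes, 1 difference turned its direction under an alternative: that of Notch4, which had not passed, ran from -0.018 without fetal replicate 3 to 0.34 without adult basal replicate 3 as each array was left out. Notch3, Hes1 and Dtx4 passed under all 18. The median difference of all probes stayed within 0.1 of 0 on the log2 scale. In the main setting 2270 probes were called (1210 higher in fetal and 1060 in adult basal cells), 4 members (3 and 1) and 5 other pathway genes (3 and 2). Benjamini-Hochberg adjustment gave 6133 probes (3267 and 2866), 7 members (5 and 2) and 8 pathway genes (3 and 5). Without the low-signal filter, with 27235 probes tested, there were 1182 probes (619 and 563), 3 members (3 and 0) and 1 pathway gene (1 and 0). A variance trend with robust estimation gave 3356 probes (1765 and 1591), 5 members (3 and 2) and 7 pathway genes (2 and 5). Normalization to the 75th percentile, normexp correction and the offset of 16 gave 2460, 2599 and 2814 probes and, each, 6 members (4 and 2). With slide as a block, 801 probes were higher in fetal cells, 0 members were higher in adult basal cells, and 3 pathway genes passed, 1 of them higher in adult basal cells. Leaving out each array in turn gave 952 (without fetal replicate 1) to 2014 (without adult basal replicate 2) probes, 494 to 1060 of them higher in fetal and 432 to 954 in adult basal cells. The members numbered 2 (without any 1 fetal array) to 5 (without adult basal replicate 2), with 2 to 4 higher in fetal and 0 to 1 in adult basal cells, and the pathway genes 1 to 4, with 1 to 2 and 0 to 2. Fewer arrays leave fewer degrees of freedom, and the cause of the other changes was not tested. Deviations from the group mean correlated at -0.03, 0.09 and 0.05 between same-numbered fetal and adult basal arrays. Differently numbered arrays ran from -0.13 to 0.12. With 3 arrays a group this cannot settle whether replicate numbers pair the samples, and the main fit treated them as unpaired. With the replicate block 1302 probes (694 and 608), 2 members (Notch3 and Hes1, 0 higher in adult basal cells) and 2 pathway genes (0 higher in adult basal cells) passed.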

Other observations

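Hey2, the relative of Hey1 known from arteries and the heart, was too dim in both populations for the test. Its log2 signals were 3.10, 3.42 and 3.35 in fetal cells, where no array was well above background, and 4.16, 5.39 and 6.25 in adult basal cells, where all 3 were. Adult basal signal was at least 2.82-fold higher, against, on each fetal array, the higher of its own signal and the lowest signal well above background. Its arrays thus lay in the opposite direction to those of Hey1. Hey2 was chosen after its values were seen, and the difference was not tested.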
